A study of Mus musculus with 18 samples.

Results

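The monocyte chemoattractant CC chemokines Ccl2, Ccl7, Ccl8, Ccl11 and Ccl12 are close paralogs that lie side by side in the mouse genome. They were taken by symbol from a count table of 55401 gene identifiers, of which 30065 had a count in any library, and all 5 were found. RNA-seq was made from mouse embryonic fibroblasts (MEFs), primary cells grown from 13.5-day embryos without head and viscera, in 18 libraries that form 2 series of 3 groups with 3 libraries each. In the S6K1 series, wild type (WT) cells carried either the empty retroviral vector (EV) or the vector with HRAS G12V (RAS), and knockout (KO) cells lacking S6K1 carried RAS. The S6K1/S6K2 series had the same pair of WT groups beside RAS cells lacking both kinases (double knockout, DKO). All groups carried a retroviral vector, KO and WT embryos of the S6K1 series were littermates from at least 3 mothers, and WT controls of the DKO cells came from WT mothers and were not littermates. Neither KO nor DKO cells with EV were analysed here, so an effect of kinase loss without RAS was not measured.

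Chemokines are small secreted proteins that draw leukocytes along a concentration gradient through receptors coupled to G proteins. In the CC family the first pair of conserved cysteines is adjacent, and the members studied here are best known for attracting monocytes through Ccr2 and eosinophils through Ccr3. Fibroblasts and macrophages both can make them, RAS-driven senescent fibroblasts secrete several of them, and inflammatory signals through NF-kappaB and AP-1 are known inducers of Ccl2. S6K1 and S6K2, encoded by Rps6kb1 and Rps6kb2, are ribosomal S6 kinases that act downstream of mTOR.

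The cluster spans 81223 bases of chromosome 11 on the plus strand (RefSeq, GRCm38.p6). Ccl2 (ENSMUSG00000035385.5), at 82035577 to 82037452, encodes the main monocyte ligand of Ccr2. Ccl7 (ENSMUSG00000035373.2), at 82045712 to 82047525, encodes another Ccr2 ligand. Next comes Ccl11 (ENSMUSG00000020676.2), at 82057832 to 82062955, which encodes the eosinophil attractant eotaxin. Ccl12 (ENSMUSG00000035352.3) lies at 82101845 to 82103399 and encodes a Ccr2 ligand of mice. Ccl8 (ENSMUSG00000009185.2), at 82115185 to 82116799, encodes a chemoattractant that acts through Ccr8 in mice. The gaps between neighbours were 8259, 10306, 38889 and 11785 bases in this order.

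The stretches around the cysteine pair are shown because they define the family and let a reader see how far the paralogs differ where reads must be told apart. Each is 66 bases of the reference coding sequence (GENCODE annotation of NCBIM37), with the adjacent cysteine codons in capitals.
Ccl2: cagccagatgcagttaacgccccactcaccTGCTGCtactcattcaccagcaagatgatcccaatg
Ccl7: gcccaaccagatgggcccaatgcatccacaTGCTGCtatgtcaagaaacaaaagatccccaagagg
Ccl11: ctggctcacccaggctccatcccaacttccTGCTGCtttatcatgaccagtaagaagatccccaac
Ccl12: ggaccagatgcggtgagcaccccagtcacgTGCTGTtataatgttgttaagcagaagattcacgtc
Ccl8: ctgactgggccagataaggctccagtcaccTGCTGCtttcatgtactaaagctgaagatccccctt
The pair fell at codons 34 and 35 in Ccl2, 33 and 34 in Ccl7 and Ccl12, and 32 and 33 in Ccl11 and Ccl8. Over the whole coding sequence, identity was between 67.7% for Ccl7 with Ccl11 and 72.4% for Ccl2 with Ccl7. The longest run of bases shared by any pair was 23, and no 50-base stretch of the members' annotated transcripts was found in the protein-coding transcripts of another gene. Noncoding transcripts and the rest of the genome were not searched. Reads were 50 bases long, so a read within these annotated transcripts matches 1 member alone when it has no mismatch.

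RefSeq promoter windows were at hand for Ccl12 and Ccl8 alone, and the 150 bases before the start are shown because these genes are neighbours in the cluster. Both are on the plus strand of GRCm38.p6, and capitals mark the letters TATAAA.
Ccl12, chr11:82101695-82101844: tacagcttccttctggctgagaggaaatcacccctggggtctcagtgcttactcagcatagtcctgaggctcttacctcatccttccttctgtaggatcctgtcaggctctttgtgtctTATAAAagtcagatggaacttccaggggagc
Ccl8, chr11:82115035-82115184: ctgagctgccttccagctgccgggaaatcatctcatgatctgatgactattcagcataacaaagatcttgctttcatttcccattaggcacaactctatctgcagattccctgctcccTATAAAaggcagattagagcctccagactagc
TATAAA began at position -31 in Ccl12 and at -32 in Ccl8, counted back from the annotated start. In windows from 250 bases before to 50 bases after the start, searched on both strands, 14.2% of the promoters of 27025 genes held these letters. Neither window held a strict NF-kappaB motif (in 0.385% of all genes), a looser NF-kappaB motif that covers it (20.5%), the AP-1 letters TGANTCA (7.93%), the STAT letters TTCNNNGAA (8.47%) or the STAT motif with 4 bases between its arms (6.99%), an interferon-response motif (3.49%), or the GC box GGGCGG (35.9%). These are letter matches in a short window and not measured binding sites.

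Total counts per library were between 8319445 and 14402442. Levels below are counts-per-million (CPM), scaled by TMM over the 9 libraries of a series, which corrects for differences in library composition. The labels were checked with the targeted genes. Rps6kb1 was at 23.5 to 36.9 CPM in KO RAS against 61.5 to 74.5 CPM in WT RAS, and at 34.4 to 39.7 CPM in DKO RAS against 75.4 to 83.6 CPM in WT RAS. Rps6kb2 was at 2.67 to 3.04 CPM in DKO RAS against 24.0 to 28.9 CPM in WT RAS. The labelled cell type was checked with 12 fibroblast genes such as Col1a1, Col1a2 and Vim, whose summed level was between 27737 and 67699 CPM over the 18 libraries. Macrophage genes were also present in every library, as set out with the Lyz2 comparison, and they set some libraries apart. With 29 macrophage genes summed, the WT libraries numbered 3 of the S6K1 series were at 1049 and 1075 CPM while those numbered 1 and 2 were at 3715 to 5265 CPM, and the WT libraries numbered 1 of the S6K1/S6K2 series were at 2206 and 1435 CPM while those numbered 2 and 3 were at 258 to 389 CPM. Results are therefore also given without these lines. In bulk RNA, a smaller number of cells of a type and less RNA per cell cannot be told apart.

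Ccl2 and Ccl7 were the abundant members. Summed over the 18 libraries, Ccl2 had 37784 counts and Ccl7 had 27465, against 3431 for Ccl12, 1599 for Ccl8 and 1350 for Ccl11. To compare genes of different length, CPM was divided by transcript length in kilobases (kb). In WT EV cells of the S6K1 series, the level per kb (mean ± SD, n = 3) was 138 ± 56.0 CPM for Ccl7 and 126 ± 80.2 CPM for Ccl2, which differ by less than their spread. Ccl12 followed at 20.9 ± 12.4 CPM per kb, Ccl8 at 13.7 ± 6.38 and Ccl11 at 3.20 ± 1.83. Ccl7 was first in both EV groups, Ccl2 was first in the 4 RAS groups, and Ccl11 was last in all 6 groups. Behind them came Ccl12 in the S6K1 series and Ccl8 in the S6K1/S6K2 series, but in the latter their means in WT RAS, 8.89 CPM per kb for Ccl12 and 11.03 for Ccl8, were closer than the spread of Ccl12. As a share of the summed level per kb, Ccl2 took 39.4% of it in EV cells of the S6K1 series, 51.6% with RAS and 56.1% with RAS and no S6K1, and the shares in the S6K1/S6K2 series were 43.8% with EV, 50.3% with RAS and 52.7% in DKO cells. Ccl12 took 6.57%, 9.20% and 2.85% in the S6K1 series and 2.61%, 2.71% and 0.904% in the other.

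**Figure D1:**
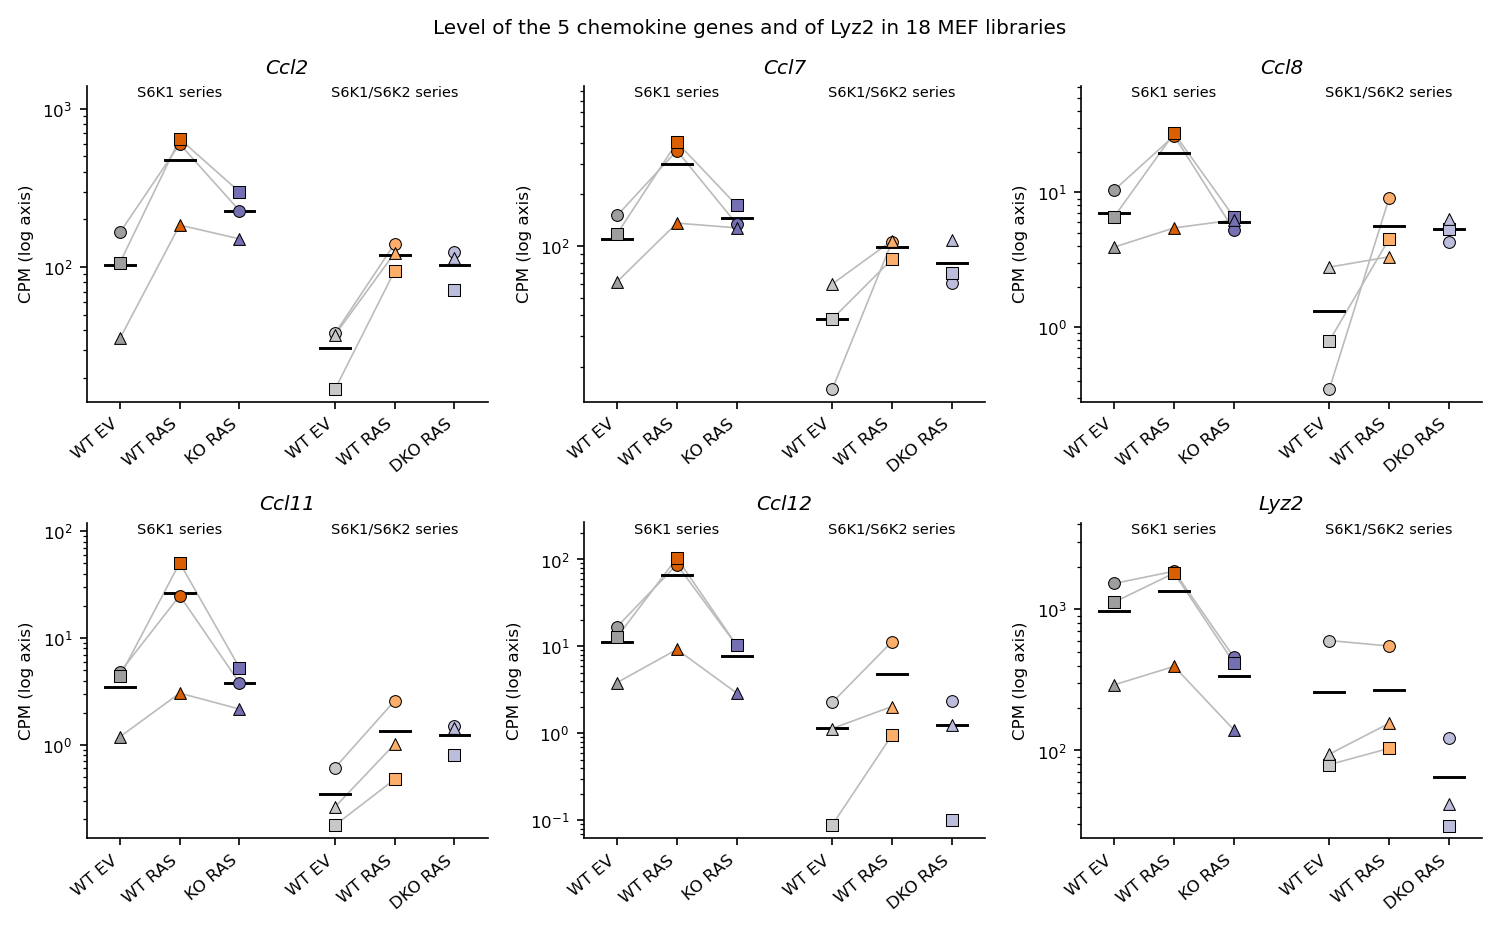
CPM (log axis) of Ccl2, Ccl7, Ccl8, Ccl11, Ccl12 and Lyz2 in each of the 18 libraries, by group; points are libraries, black bars are group means of 3 libraries, and lines join libraries with the same number (all groups in the S6K1 series, EV and RAS alone in the S6K1/S6K2 series). Every member rises along each line from EV to RAS, and the line numbered 3 of the S6K1 series is the lowest in both WT groups for every member.

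To investigate how RAS affects these chemokines, WT RAS was compared with WT EV within each series. All 5 members were higher with RAS in 3 of 3 same-numbered pairs of both series. For the S6K1 series 1 member, Ccl2, passed the test with group as the only term, and all 5 passed once libraries with the same number were treated as 1 line (replicate block). Of the S6K1/S6K2 series, Ccl2, Ccl7 and Ccl8 passed with group alone and all 5 with the block. The block fit of that series also held the DKO libraries, which were not shown to pair with WT libraries of their number. This limits its block calls with RAS too. Each p is from edgeR's quasi-likelihood test, two-sided and adjusted over all genes tested, with a threshold of 0.05, and these p-values measure the spread between these libraries. Macrophage genes moved in the same fits. With RAS, edgeR called 0 of 29 higher and 1 lower in the S6K1 series with group alone, and 10 higher and 4 lower with the block. In the S6K1/S6K2 series it called 0 of 27 higher and 1 lower with group alone, and 1 higher and 10 lower with the block, and their part in the chemokine result was not tested.

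In the S6K1 series, Ccl2 measured 166, 107 and 35.4 CPM in WT EV libraries 1, 2 and 3 and 600, 646 and 184 CPM in those of WT RAS. The groups did not overlap, although WT RAS library 3 lay close above WT EV library 1. The log2 fold change was 2.22 (SE 0.60, adjusted p 0.0397), and 2.24 with the block (adjusted p 0.000117).

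Ccl7 was at 151, 118 and 62.3 CPM in WT EV and at 359, 402 and 136 CPM in WT RAS. The groups overlapped through library 3 of WT RAS, which was below library 1 of WT EV. The log2 fold change was 1.44 (SE 0.41, adjusted p 0.0509), and 1.39 with the block (adjusted p 0.0012).

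Ccl8 was at 10.4, 6.62 and 3.93 CPM in WT EV and at 26.3, 27.5 and 5.46 CPM in WT RAS, and again library 3 of WT RAS lay within the EV range. Its log2 fold change was 1.48 (SE 0.54, adjusted p 0.113), and 1.40 with the block (adjusted p 0.0159). Ccl11 was at 4.80, 4.39 and 1.19 CPM in WT EV and at 24.98, 50.6 and 3.05 CPM in WT RAS. Its log2 fold change of 2.90 (SE 0.86, adjusted p 0.0562) was the largest of the members in this comparison, and it was 2.71 with the block (adjusted p 0.000574). Ccl12 was at 16.9, 12.9 and 3.84 CPM in WT EV and at 87.4, 103.9 and 9.23 CPM in WT RAS. In WT RAS, Ccl11 and Ccl12 were both far higher in libraries 1 and 2 than in library 3. The log2 fold change of Ccl12 was 2.56 (SE 0.84, adjusted p 0.0806), and 2.41 with the block (adjusted p 0.000101).

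Of all 14036 genes tested in the S6K1 series, 7.15% were called higher with RAS, and 18.1% with the block, against 1 and 5 of the 5 members. Only Ccl2 had groups that did not overlap, which was true in the same direction for 15.9% of all genes. All 5 members had an unadjusted p under 0.05, and DESeq2 called 5 (9.17% of all genes higher). The call of Ccl2 was lost in edgeR without any of 7 of the 9 libraries, with adjusted p values of 0.0559, 0.0562 and 0.0501 without KO RAS 1, 2 and 3, 0.115 and 0.0766 without WT EV 2 and 3, and 0.108 and 0.127 without WT RAS 1 and 2. Without WT RAS library 3 alone, 5 members were called (940 of all 14243 genes higher), and without all libraries numbered 3 it was also 5 (5.93% of all genes higher), with log2 fold changes of 2.19 for Ccl2, 1.50 for Ccl7, 1.65 for Ccl8, 3.04 for Ccl11 and 2.68 for Ccl12.

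In the S6K1/S6K2 series, which was scaled separately, the mean CPM of every member was lower than in the WT groups of the S6K1 series. Ccl2 was at 38.1, 16.9 and 37.3 CPM in WT EV and at 141, 94.8 and 123 CPM in WT RAS. Every RAS library was above every EV library, and the log2 fold change was 1.96 (SE 0.32, adjusted p 0.0025). Ccl7 was at 14.7, 37.8 and 60.3 CPM in WT EV and at 106, 84.1 and 108 CPM in WT RAS. Its groups did not overlap either, and the log2 fold change was 1.40 (SE 0.41, adjusted p 0.0331).

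Ccl8 was at 0.349, 0.795 and 2.79 CPM in WT EV (4, 9 and 32 counts) and at 9.06, 4.52 and 3.33 CPM in WT RAS. The groups did not overlap, but the difference was large in library 1 and small in library 3, where the change on the log2(CPM + 0.5) scale was 3.49 and 0.22. The log2 fold change was 2.09 (SE 0.64, adjusted p 0.0382). Ccl11 was at 0.610, 0.177 and 0.262 CPM in WT EV and at 2.59, 0.476 and 1.02 CPM in WT RAS. Libraries 2 and 3 of WT EV held 2 and 3 counts of it, at or under the floor of 3 counts that a count of 0 allows. Its log2 fold change was 1.93 (SE 0.69, adjusted p 0.065), and 1.86 with the block (adjusted p 0.0259). Ccl12 was at 2.27, 0.0883 and 1.14 CPM in WT EV and at 11.3, 0.951 and 2.04 CPM in WT RAS, so that library 1 was the highest of both groups and library 2, with 1 count in EV, the lowest. Its log2 fold change was 2.02 (SE 1.11, adjusted p 0.203), and 1.93 with the block (adjusted p 0.0214).

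Among the 13881 genes tested in this series, 13.5% were called higher with RAS, and 15.0% with the block, against 3 and 5 of the members. The 3 members without overlap compare with 20.9% of all genes. Ccl2 was called when any library was left out. For Ccl7 the call was lost without WT EV 2 (adjusted p 0.0899) and without WT RAS 1, 2 or 3 (0.0693, 0.0635 and 0.0885). Ccl8 lost its call in edgeR without DKO RAS 2 or 3 (0.059 and 0.0535), WT EV 1 or 2 (0.0698 and 0.119) and WT RAS 1 or 2 (0.118 and 0.0725). Without all libraries numbered 1, 2 members were called (14.1% of all genes higher), Ccl2 at 2.01 and Ccl7 at 0.97, while Ccl8 was at 1.12 (adjusted p 0.144).

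To ask whether the RAS effect differed between the series, the S6K1 effect was subtracted from the S6K1/S6K2 effect in a fit of all 18 libraries. The difference on the log2 scale was -0.27 for Ccl2, -0.05 for Ccl7, 0.58 for Ccl8, -0.995 for Ccl11 and -0.57 for Ccl12, with adjusted p values of 0.764 to 0.978. None of the members passed, none had an unadjusted p under 0.05, and 0% of all genes were called by edgeR. DESeq2 also called 0 of the 5. Each series has libraries and lines of its own, so a difference in how they were handled cannot be told apart from a difference between series.

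**Figure D2:**
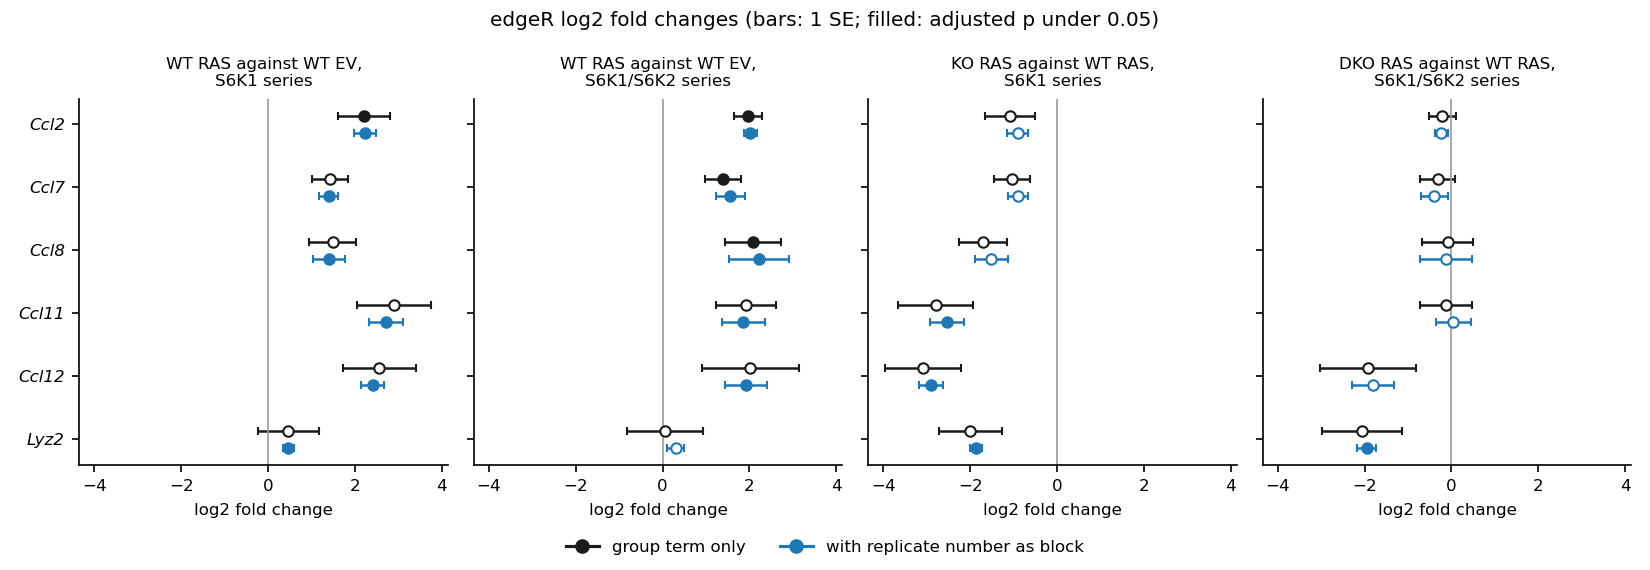
edgeR log2 fold change of each member and of Lyz2 with bars of 1 SE in 4 comparisons (RAS against EV in WT, and KO or DKO against WT under RAS), for the fit with group alone and the fit with the replicate block. Filled symbols have an adjusted p under 0.05. All RAS effects of the members, but not those of Lyz2, lie between 1.39 and 2.90. S6K1 loss effects lie below 0 for every member, and 4 of the members' 5 DKO effects with group alone lie between -0.31 and -0.08.

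To determine how S6K1 loss affects the chemokines under RAS, the KO RAS libraries were set against those of WT RAS, the group that also entered the RAS comparison. The members' log2 fold changes were between -3.09 and -1.04, with a median of -1.71, where the median of all genes tested was 0.03. None passed with group alone in edgeR (0.00712% of all genes lower), 4 had an unadjusted p under 0.05, and DESeq2 called 0. The targeted gene Rps6kb1 did not pass with group alone either, although its KO and WT ranges did not overlap. This test can therefore miss a real change. With the block, Ccl11 and Ccl12 fell (3.61% of all genes lower). KO and WT cells came from different embryos, and the labels do not tie KO numbers to WT numbers. A line in this comparison thus means the libraries of 1 number. Taking them as pairs rests on correlations in these same data, which limits the block calls.

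Ccl2 was at 227, 299 and 151 CPM in KO RAS libraries 1, 2 and 3, against the 600, 646 and 184 CPM of WT RAS. The groups overlapped, since WT RAS library 3 lay below KO RAS libraries 1 and 2. The log2 fold change was -1.08 (SE 0.58, adjusted p 0.872), and -0.90 with the block (adjusted p 0.0768). Ccl7 was at 135, 173 and 128 CPM in KO RAS, and its log2 fold change was -1.04 (SE 0.41, adjusted p 0.624), or -0.90 with the block (adjusted p 0.0619). In line 3 the pair differed by -0.09 on the log2(CPM + 0.5) scale, against -1.41 and -1.21 in lines 1 and 2. Ccl8 was at 5.27, 6.58 and 6.24 CPM in KO RAS, close to WT RAS library 3 and below libraries 1 and 2. It was lower in 2 of 3 pairs, and its log2 fold change was -1.71 (SE 0.55, adjusted p 0.587), or -1.51 with the block (adjusted p 0.0645).

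Ccl11 was at 3.82, 5.28 and 2.16 CPM in KO RAS against 24.98, 50.6 and 3.05 CPM in WT RAS. KO was lower in 3 of 3 pairs, although the groups overlapped through WT RAS library 3. The log2 fold change was -2.80 (SE 0.86, adjusted p 0.587), and -2.54 with the block (adjusted p 0.00502). Ccl12 was at 10.3, 10.3 and 2.91 CPM in KO RAS against 87.4, 103.9 and 9.23 CPM in WT RAS, lower in 3 of 3 pairs by 3.03, 3.27 and 1.51 on the log2(CPM + 0.5) scale. Its log2 fold change of -3.09 (SE 0.87, adjusted p 0.587) was the lowest of the members, and it was -2.91 with the block (adjusted p 0.000199).

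No member had KO and WT groups without overlap, where 4.17% of all genes did in the lower direction. Line 3 was the one in which WT RAS was lowest. Without all libraries numbered 3, edgeR called 4 members lower (2.31% of all genes), namely Ccl7 at -1.30 (adjusted p 0.0237), Ccl8 at -2.17 (0.0128), Ccl11 at -3.04 (0.0141) and Ccl12 at -3.21 (0.00524), with Ccl2 at -1.24 (0.0588). Macrophage genes moved with this comparison. Of 29 macrophage genes tested, edgeR called 0 with group alone and 27 lower with the block, with a median log2 fold change of -2.20, and their summed level was 1075 to 5265 CPM in WT RAS, against 379 to 1246 CPM with S6K1 lost. Their part in the chemokine result was not tested.

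Loss of both kinases was examined by setting DKO RAS against WT RAS. Ccl2 was at 125, 71.1 and 114 CPM in DKO RAS and Ccl7 at 61.3, 69.7 and 109 CPM. Both ranges overlapped those of WT RAS, with log2 fold changes of -0.21 (SE 0.31) and -0.31 (SE 0.40). Ccl8 was at 4.26, 5.37 and 6.31 CPM and Ccl11 at 1.48, 0.810 and 1.44 CPM, again within or across the WT RAS range. Their log2 fold changes were -0.08 (SE 0.59) and -0.13 (SE 0.61). Ccl12 was at 2.38, 0.101 and 1.26 CPM in DKO RAS, with 1 count in library 2, against 11.3, 0.951 and 2.04 CPM in WT RAS. Its log2 fold change was -1.92 (SE 1.11), which was not detectable against the spread between libraries. All adjusted p values were 1 after rounding, edgeR and DESeq2 called 0 members with 0 at an unadjusted p under 0.05 in edgeR, and 0.0144% of all genes were called lower. Macrophage genes had a median log2 fold change of -1.89 here, with 27 tested, 0 called with group alone and 4 lower with the block, and a summed level of 258 to 1435 CPM in WT RAS, against 125 to 384 CPM in DKO cells. Same-numbered DKO and WT libraries were not shown to be pairs, so the block count rests on the number alone.

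The loss effects of the series were also subtracted, S6K1/S6K2 minus S6K1. The differences were 0.91 for Ccl2, 0.77 for Ccl7, 1.67 for Ccl8, 2.72 for Ccl11 and 1.22 for Ccl12. None passed in edgeR (0.00690% of all genes were called) or in DESeq2, and Ccl11 alone had an unadjusted p under 0.05 (0.0335). The weaker point estimates in DKO cells are therefore not shown to differ from those in KO cells.

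RAS cells lacking the kinases were also compared with WT EV, which shares its libraries with the RAS comparisons. In the S6K1 series the log2 fold change was 1.14 for Ccl2 (adjusted p 0.22), 0.39 for Ccl7, -0.22 for Ccl8, 0.10 for Ccl11 and -0.53 for Ccl12. edgeR and DESeq2 called 0 of 5, with 0 at an unadjusted p under 0.05 in edgeR, where 18.1% of all genes were called in either direction. With the block, Ccl2 rose by 1.34 (adjusted p 0.00213, 20.7% of all genes higher). Of the 29 macrophage genes, 7 were lower in this comparison with group alone and 27 with the block, with a median log2 fold change of -2.20. For DKO cells, Ccl2 at 1.75 (adjusted p 0.00412) and Ccl8 at 2.01 (0.0444) were higher in DKO RAS than in WT EV (13.1% of all genes higher), and Ccl7 at 1.09 (0.0784), Ccl11 at 1.80 (0.0814) and Ccl12 at 0.10 (0.96) did not pass. DKO RAS lay above WT EV with no overlap for 4 members, all but Ccl12, as did 21.5% of all genes. The call of Ccl2 held when any library was left out, whereas that of Ccl8 was lost without DKO RAS 1, 2 or 3 (adjusted p 0.0736, 0.101 and 0.0992), WT EV 1 or 2 (0.0803 and 0.133) or WT RAS 2 or 3 (0.0636 and 0.0524). Of 27 macrophage genes tested, 1 was lower in DKO RAS than in WT EV with group alone and 25 with the block, with a median log2 fold change of -2.69. DKO and WT libraries share a number only and were not shown to be pairs, which limits this block count. The part of the macrophage genes in these results was not tested.

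Each member was then compared with Lyz2, the lysozyme gene of macrophages and other myeloid cells. Libraries 1, 2 and 3 of WT EV in the S6K1 series held 1526, 1126 and 292 CPM of Lyz2, those of WT RAS held 1862, 1807 and 394 CPM, and the KO RAS libraries held 458, 419 and 140 CPM. The S6K1/S6K2 series had 601, 79.4 and 94.3 CPM of it with EV, 550, 103.5 and 156 CPM with RAS, and 123, 29.4 and 41.9 CPM in DKO cells. Lyz2 thus differed between lines and was low in KO and DKO cells, while RAS moved it little, by 0.46 (adjusted p 0.722 in edgeR, and 0.47 with the block, adjusted p 0.0219) and 0.06 (adjusted p 0.968) on the log2 scale in the S6K1 and the S6K1/S6K2 series. S6K1 loss gave Lyz2 a log2 fold change of -1.998 (adjusted p 0.588 in edgeR, and -1.87 with the block, adjusted p 3.91e-05), and loss of both kinases one of -2.06 (adjusted p 1).

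Other defining macrophage genes were present, over ranges of unequal width. Cd68 was between 15.5 and 199 CPM, Adgre1 between 0.810 and 105.5 CPM, Csf1r between 1.32 and 182 CPM and Ptprc between 0.405 and 61.5 CPM over the 18 libraries, and no gene of the macrophage list was at 0 in all libraries of a group. Cd68, a lysosomal protein of macrophages, did not follow Lyz2 in every pair, with 67.1, 33.8 and 26.4 CPM in WT RAS and 24.0, 28.8 and 29.8 CPM in DKO RAS of the S6K1/S6K2 series. Of 14 genes of lymphoid cells and granulocytes, Cd3e, a chain of the T cell receptor complex, had 1 count and Cd8a had 0 over all 18 libraries. S100a8, a calcium-binding protein abundant in neutrophils, had 0 counts in the 6 EV libraries, and with RAS it had 10 to 23 in WT cells and 5 to 14 in KO cells of the S6K1 series, and 7 to 17 in WT and 7 to 27 in DKO cells of the other. It was the one gene of this list that edgeR called with RAS and group alone in each series (adjusted p 0.00683 and 0.0101), and it was also called in KO RAS and DKO RAS against WT EV (0.00901 and 0.00705). The granulocyte genes S100a9, Epx and Prg2 of the same list did not exceed the floor of 3 counts in any library. Ms4a2, a receptor chain of mast cells and basophils, had 14 to 28 counts in WT EV of the S6K1 series and at most 11 in any library of the other groups, and it fell with RAS in the S6K1 series in the block fit alone (-1.51 on the log2 scale, edgeR adjusted p of 0.0345). Epithelial genes also moved with RAS, from a summed 1.32 to 10.3 CPM in EV libraries to 67.8 to 195 CPM in RAS libraries over 7 genes, and Krt8, Krt18, Epcam and Cldn4 rose in both series. Krt5 and Krt14 of this list stayed at the floor in the RAS groups. Of the 10 endothelial genes, 7 were tested with RAS in the S6K1 series, and 4 of them had a negative log2 fold change. Cdh5, Egfl7 and Esam were called higher and 0 lower with group alone, and 3 higher and 3 lower with the block. In the other series 2 of 5 tested were called higher and 1 lower. Of 8 muscle genes, 2 were tested in each series, and Acta1 was called higher in both. Myod1, Myog, Myf5, Myh3 and Ckm of this list stayed at the floor in every group. The 12 fibroblast genes went from a summed 51488 to 67699 CPM in EV libraries to 27737 to 43130.4 CPM in RAS libraries. The part of these cell-type genes in the chemokine result was not tested.

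**Figure D3:**
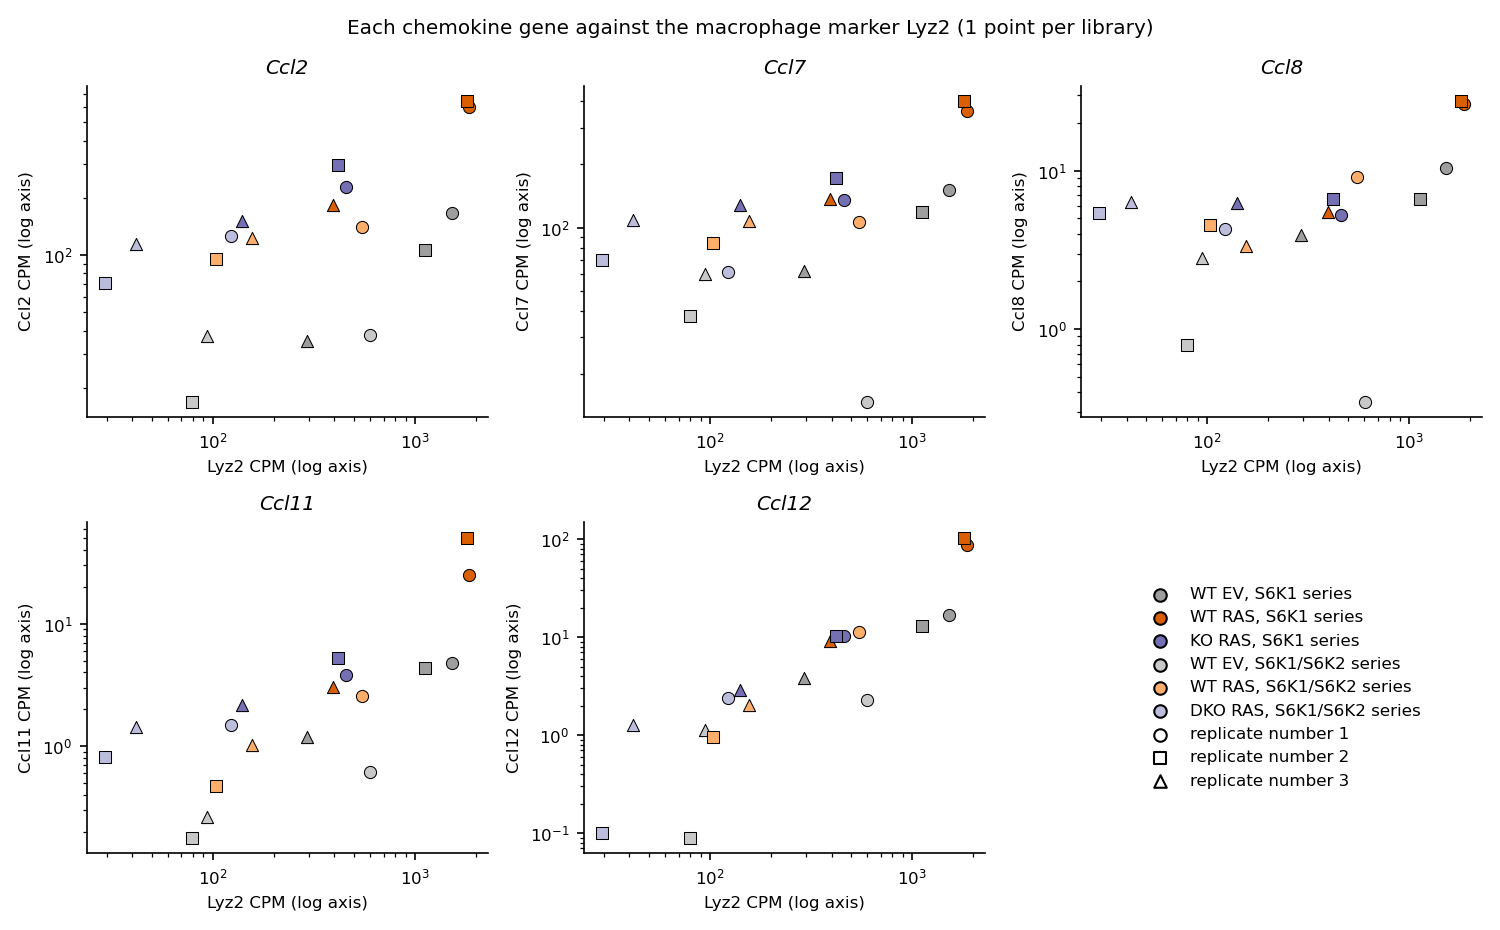
CPM of each member (vertical, log axis) against CPM of Lyz2 (horizontal, log axis) in the 18 libraries, coloured by group. Ccl12 follows Lyz2 most closely of the members (r = 0.908). Ccl2 and Ccl7 of WT EV libraries lie below those of RAS libraries at a similar Lyz2 level, and so does Ccl12 in the S6K1 series.

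Across the 18 libraries, on the log2(CPM + 0.5) scale, Ccl12 went most closely with Lyz2 and Ccl7 least. Pearson's r was 0.908 for Ccl12 (Spearman's rho 0.911), 0.770 for Ccl11 (0.765), 0.578 for Ccl2 (0.610), 0.495 for Ccl8 (0.606) and 0.492 for Ccl7 (0.591). Permutation p values of r, adjusted over 30 relations, were 0.000138, 0.00075, 0.0359, 0.0683 and 0.0683 in this order. Those of rho were 0.00015, 0.0027, 0.0298, 0.0298 and 0.0298, so Ccl8 and Ccl7 passed by rho and not by r. The raw permutation p of Ccl12 was 1e-05, the smallest that the permutations could give. EV and RAS libraries of a number are taken as 1 line and all points share groups, so the libraries are not independent and these p values are too small. Without the 2 libraries farthest from the median Lyz2 level, r was 0.908 for Ccl12, 0.830 for Ccl11, 0.640 for Ccl2, 0.637 for Ccl8 and 0.556 for Ccl7.

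Within the S6K1 series (n = 9, exact permutation), r was 0.888 for Ccl12 (adjusted p 0.000138), 0.784 for Ccl8 (0.0257), 0.779 for Ccl11 (0.0257), 0.674 for Ccl7 (0.0852) and 0.546 for Ccl2 (0.185). For Ccl2 and Ccl7 it dropped to 0.117 and 0.279 without the 2 farthest libraries, so those relations rest on WT RAS libraries 1 and 2. Within the S6K1/S6K2 series (n = 9, exact permutation), r held for Ccl12 alone, at 0.776 (adjusted p 0.0359), and at 0.637 without the 2 farthest libraries. It was 0.275 for Ccl11, 0.0635 for Ccl2, -0.281 for Ccl8 and -0.372 for Ccl7, with adjusted p values of 0.391 to 0.886. As a description without a test, deviations from the group means correlated with those of Lyz2 at 0.914 for Ccl12, 0.801 for Ccl2, 0.790 for Ccl11, 0.312 for Ccl8 and 0.109 for Ccl7.

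The members' level per 1000 CPM of Lyz2 shows in which comparisons they moved apart from it. In the S6K1 series, Ccl2 per 1000 CPM of Lyz2 was 108, 94.8 and 121 CPM with EV, 322, 357 and 467 CPM with RAS, and 496, 713 and 1075 CPM in KO cells. Relative to Lyz2 it was thus higher with RAS and higher again in KO RAS, in every library and with no overlap. Ccl7 had the same order in each line, with 98.9, 105 and 213 for EV, 193, 222 and 346 for RAS, and 294, 414 and 912 for KO cells. Ccl12 was at 11.1, 11.4 and 13.2 for EV, 46.9, 57.5 and 23.4 for RAS, and 22.4, 24.7 and 20.8 for KO cells. Unlike Ccl2, it was in this series lower per Lyz2 in KO RAS than in WT RAS in all 3 lines. Ccl11 was at 3.14, 3.90 and 4.07 for EV, 13.4, 28.0 and 7.73 for RAS, and 8.32, 12.6 and 15.4 for KO cells, so it was lower in KO in lines 1 and 2 and higher in line 3. Of the S6K1/S6K2 libraries, Ccl2 was at 256, 915 and 789 in WT RAS and 1021, 2421 and 2723 in DKO RAS, above its WT RAS values in every library. Ccl12 there was at 20.6, 9.18 and 13.1 in WT RAS and at 19.4, 3.45 and 30.1 in DKO RAS, lower in libraries 1 and 2 and higher in library 3, with 1 count in DKO RAS library 2. Ccl7 was at 193, 812 and 692 in WT RAS and 499, 2372 and 2600.0 in DKO RAS, and Ccl11 at 4.71, 4.59 and 6.53 in WT RAS and 12.1, 27.6 and 34.4 in DKO RAS. For Ccl8 the ratio in the S6K1 series was 6.83, 5.88 and 13.5 with EV, 14.1, 15.2 and 13.8 with RAS, and 11.5, 15.7 and 44.5 in KO cells, lower than with RAS in line 1 and far higher in line 3. In the S6K1/S6K2 series it was 16.5, 43.6 and 21.4 in WT RAS and 34.7, 183 and 151 in DKO RAS. With EV, the ratios of that series were 63.3, 212 and 395 for Ccl2 and 24.5, 476 and 640 for Ccl7. Both were lower than with RAS in each line, but the groups overlapped. Ccl12, at 3.77, 1.11 and 12.04 with EV, was also lower in each line, with overlap. Ccl11, at 1.01, 2.22 and 2.78 with EV (7, 2 and 3 counts), was lower without overlap. For Ccl8 the ratio rose with RAS in lines 1 and 2 but fell in line 3, from 29.6 to 21.4. The ratio divides by a gene that itself fell in the block fit, and no test was made on it.

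**Figure D4:**
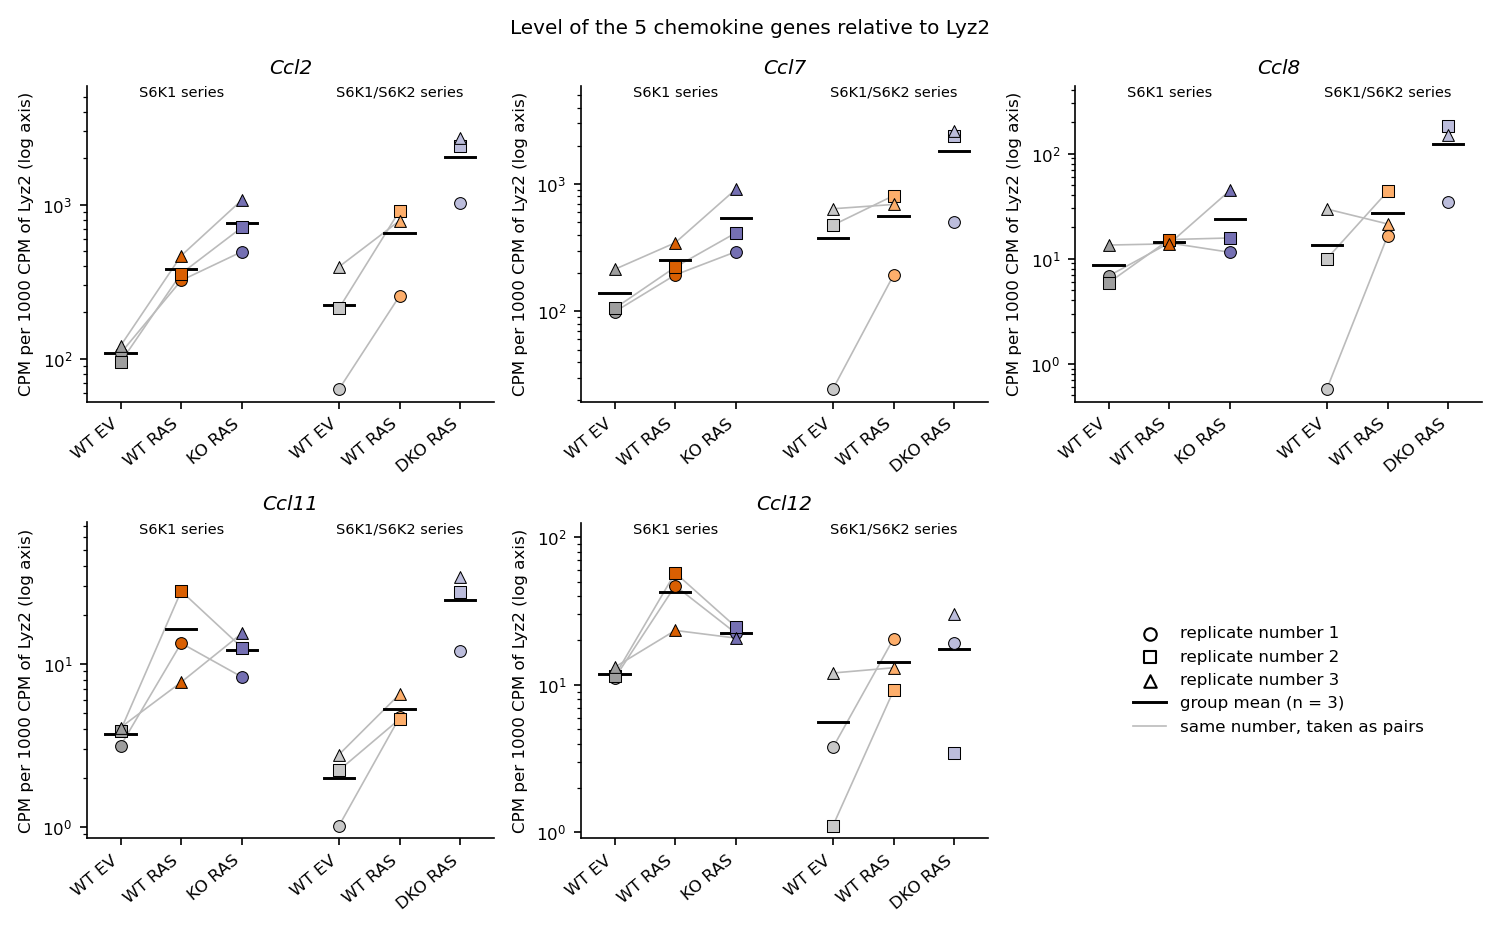
Members' CPM per 1000 CPM of Lyz2 (log axis) in each of the 18 libraries, by group. Ccl2 in the S6K1 series goes from 94.8 to 121 in WT EV to 322 to 467 with RAS and 496 to 1075 in KO cells, while Ccl12 is at 20.8 to 24.7 in KO RAS and 23.4 to 57.5 in WT RAS.

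Among themselves the members correlated at r = 0.768 (Ccl7 with Ccl12) to 0.943 (Ccl11 with Ccl12) over the 18 libraries, and at 0.413 to 0.898 for the same pairs after group means were removed. These are descriptions, since the points share groups and lines. Among 9830 genes with a mean of at least 100 counts, the genes most like each member by Pearson's r over the 18 libraries differed. For Ccl2 they were Farsb (0.956), 1300014I06Rik (0.955) and Abcg1 (0.955). Ccl7 was most like Ripk3 (0.930), Pvrl2 (0.929) and Sdpr (0.919), and Ccl8 was most like Ccr1 (0.910), Pvrl2 (0.899) and Spata13 (0.898). For Ccl11 they were Twist2 (0.961), Ptgis (0.920) and Mlkl (0.915). Those of Ccl12 were Trf (0.958), Fcgr2b (0.957) and Cfp (0.949), and Lyz2 was the gene at rank 22 for Ccl12, at 212 for Ccl11, and at 1637, 1888 and 1718 for Ccl2, Ccl7 and Ccl8.

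Genes next to the cluster were nearly silent. Before Ccl2, per-library counts were 0 to 4 for Asic2, 0 for 1700071K01Rik and 0 to 1 for Spaca3. After Ccl8, they were 0 to 1 for Ccl1, itself a CC chemokine that attracts cells through Ccr8, 0 to 26 for Tmem132e and 1 to 11 for Cct6b. Reads were thus found at the members and hardly at their flanking genes.

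Of 15 other CC chemokine genes, 14 had an identifier, and 8 were tested in the S6K1 series and 5 in the S6K1/S6K2 series. With RAS, Ccl6, a chemokine of myeloid cells, rose in both, by 4.68 (adjusted p 0.00885 in edgeR) and 4.34 (0.00784) on the log2 scale, and Ccl25 rose by 1.01 in the S6K1/S6K2 series (0.0157). In the S6K1 series the mean level of Ccl6 was 4.01 ± 2.67 CPM with EV, 105 ± 72.5 CPM with RAS and 18.5 ± 14.1 CPM in KO cells (SD, n = 3). With kinase loss, edgeR called 0 of them in either series. With the block, S6K1 loss lowered 5 of 8, namely Ccl3 (-3.34), Ccl4 (-2.98), Ccl6 (-2.57), Ccl9 (-2.46) and Ccl5 (-1.45), and loss of both kinases lowered 2 of 5. The count for both kinases rests on DKO and WT libraries that share a number only. For RAS, the block called 4 of 8 higher in the S6K1 series and 3 of 5 in the other.

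Of 9 receptor genes, 4 were tested in each series. Ccr2, the receptor of Ccl2, Ccl7 and Ccl12, had 0 to 3 counts in any library, and Ccr3, the receptor of Ccl11, had 0 to 4. Ccr1, an inflammatory chemokine receptor of myeloid cells that also binds Ccl7, had 10.3 ± 5.47 CPM with EV, 36.9 ± 22.6 CPM with RAS and 13.2 ± 7.52 CPM in KO cells of the S6K1 series, and 0.643 ± 0.440 CPM with EV, 12.1 ± 9.28 CPM with RAS and 9.16 ± 5.25 CPM in DKO cells of the other. Ccr1 rose with RAS in the S6K1/S6K2 series by 4.21 on the log2 scale (adjusted p 0.00408 in edgeR), and in the S6K1 series with the block alone (adjusted p 0.122 without it and 5.11e-06 with it). With S6K1 loss 2 of the 4 receptor genes fell in the block fit, Ccr1 among them (-1.45 on the log2 scale, edgeR adjusted p of 6.64e-05). The atypical receptor Ackr3, which scavenges CXC chemokines, fell with RAS in both series (log2 fold change -2.46 and -3.29, adjusted p 0.00056 and 0.00113), and Ackr4, a scavenger of some CC chemokines, fell in the S6K1/S6K2 series (-3.11, adjusted p 0.00228).

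Among 28 genes of the signals that induce these chemokines, 26 were tested in the S6K1 series and 25 in the other. RAS raised 4 and lowered 2 in the former, and raised 5 and lowered 3 in the latter. With the block these counts were 7 and 3 in the S6K1 series, and 4 and 5 in the other. Of all genes, 1004 were called higher and 855 lower of 14036 in the S6K1 series, and 1880 and 1766 of 13881 in the other. With the block, the all-gene counts were 2540 and 2545, and 2077 and 1903. The AP-1 subunit Fosl1 rose by 1.88 and 2.48, the NF-kappaB target and inhibitor Tnfaip3 by 1.43 and 1.44, the AP-1 subunit Jun by 1.22 and 0.71, and the interleukin-1 receptor chain Il1rap by 1.09 and 0.81 (adjusted p 0.00018 to 0.0352 in edgeR). Stat3, a transcription factor of cytokine signalling, fell in both (log2 fold change -0.71 and -0.42), and Tnfrsf1a, a receptor of TNF, fell in the S6K1 series (-0.42). In the other series Il4ra rose by 1.12, while the interferon-pathway factor Irf1 fell (-1.31). With kinase loss edgeR called 0 in either series, and the block called 4 lower with S6K1 loss, among them Irf1 (-0.69) and Tnf (-2.53).

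Of 7 genes for enzymes that can trim these chemokines, the close paralogs Mmp1a and Mmp1b, between which reads may be split, and Mmp3 rose with RAS in both series, by 8.64, 4.79 and 4.21 in the S6K1 series and by 7.03, 5.19 and 3.98 in the other on the log2 scale (adjusted p 8.85e-05 to 0.00145 in edgeR). In WT EV, Mmp1a had 1 to 2 counts in the S6K1 series and 1 to 3 in the other, and Mmp1b had 2 to 9 and 0 to 3. These are at or near the floor, so the size of their rise is uncertain. Mmp14, a membrane-bound protease, fell in both (-0.99 and -0.92), and the gelatinase Mmp2 fell in the S6K1/S6K2 series (-1.48). None of the 7 was called in edgeR with kinase loss and group alone, and 1 fell with S6K1 loss in the block fit. Of 7 genes for regulators of mRNA decay and stability, such as Zfp36 and Elavl1, 0 were called with RAS in the S6K1 series, and 1 in the S6K1/S6K2 series, Zfp36l1 at -0.71 (adjusted p 0.0262), and 0 with kinase loss in either series. With the block, 1 of the 7 rose and 1 fell with RAS in the S6K1 series.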

How the data were processed

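Poly(A) RNA of 18 MEF cultures was sequenced as stranded single-end reads of 50 bases. The authors deposited raw read counts per gene, 1 column per library. Per the study's methods, reads were mapped to mm9 with TopHat and counted with HTSeq, whereas the submitters' processing notes name STAR 2.7.1a, mm10 and DESeq2 1.28.1. The build behind the counts is therefore not settled, and positions here are RefSeq's on GRCm38.p6, given by gene. A symbol was matched to 32589 of 55401 identifiers, which held 99.1% of counts.

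Counts were tested in R 4.3.3 with edgeR 4.0.16 (quasi-likelihood test, TMM, filterByExpr with a minimum count of 10, Benjamini-Hochberg over all genes, threshold 0.05). The 9 libraries of a series entered 1 fit, in which group was the sole term. All 5 members passed the filter in both series. Two-sided tests compared WT RAS with WT EV, KO or DKO RAS with WT RAS, and KO or DKO RAS with WT EV, and the series' effects were subtracted in a fit of 18 libraries. The code was tested on simulated counts. Relations to Lyz2 used log2(CPM + 0.5) and 100000 permutations, or all permutations for 9 libraries (scipy 1.17.1). Promoter and coding sequences were read from RefSeq and GENCODE tables.

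Groups and replicate numbers came from the labels. Deviations from the group means of same-numbered libraries correlated at 0.655, 0.422 and 0.646 (RAS against EV), 0.672, 0.373 and 0.599 (KO against WT) and 0.626, 0.468 and 0.491 (KO RAS against EV) in the S6K1 series, and the WT pairs of the S6K1/S6K2 series at 0.381, 0.304 and 0.301, so that number was taken as a line there. KO and WT were littermates per the methods, but the labels do not say which KO and WT libraries shared a mother, so their pairing by number is assumed. EV and RAS of a number are taken as 1 WT line.

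The text names the members, the targeted genes, defining macrophage genes, the 3 genes most like each member, the genes next to the cluster, and list genes past the threshold with the receptors Ccr1, Ccr2 and Ccr3. Some list genes are counted but not reported by name here. Genes of the block fit were named after their values were seen. Members and lists were chosen with earlier results of these data known. Alternatives were DESeq2 1.42.0 as the test, its size factors, upper-quartile and total count scaling, no filter, a minimum of 10 counts in every library, the 6 compared or all 18 libraries in the fit, the replicate block, and each library left out. Leaving out the lines that stand apart in macrophage genes was chosen after seeing the data. Between replicates, chi-square over degrees of freedom was 7.98 or more, so all were kept as separate samples. Floors cover counting error only.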

Additional observations from a re-analysis of the deposited data

How the results depend on the processing

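The calls of the members depended on the processing more than their direction did. In the S6K1 series, RAS called 1 member, which became 0 with the 6 compared libraries, 2 with total count scaling, 3 with all 18 libraries, and 5 with DESeq2, with no filter, with the replicate block and with the libraries numbered 3 left out. Leaving out single libraries gave 0 to 5. Higher calls over all genes were 797 of 13687 with the 6 compared libraries and 1126 of 14036 with total count scaling. They were 1149 of 14483 with all 18 libraries and 1102 of 27614 with no filter. In the S6K1/S6K2 series, the 3 called members became 1 with the 6 compared libraries (1476 of all 13548 genes higher) and 5 with the replicate block, and 1 to 3 when single libraries were left out. S6K1 loss, with 0, gave 2 with no filter (93 of all 27614 genes lower), 2 with the replicate block and 4 with the libraries numbered 3 left out. KO RAS against WT EV, with 0, gave 1 with the replicate block and 1 with the libraries numbered 3 left out (2431 of all 14141 genes in either direction). DKO RAS against WT EV, with 2, gave 1 with the 6 compared libraries, 1 with at least 10 counts in every library and 1 with total count scaling, and 1 to 3 when single libraries were left out. With the 6 libraries, the 10-count minimum and total count scaling, 1401 of 13454, 1502 of 11831 and 1522 of 13881 genes were called higher. The other counts stayed within 1.5 times or at 0, including those of both differences between series. The cause was not tested.

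For the pairing, same-numbered DKO and WT RAS libraries correlated at 0.287, 0.424 and -0.0287, and DKO RAS and WT EV libraries at 0.202, 0.294 and -0.105, so these share a number only. There the replicate block called 0 members with loss of both kinases and 3 in DKO RAS against WT EV (Ccl2, Ccl7 and Ccl11, with Ccl8 at an adjusted p of 0.0501), and it turned Ccl11 to 0.039 with loss of both kinases. Of all 13881 genes, the block called 2012 higher in DKO RAS against WT EV and 8 lower with loss of both kinases. It turned the difference of RAS effects of Ccl7 to 0.15. Among the members, the block changed no call other than those given. For the gene lists its counts stand beside those with group alone.

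With libraries numbered 1 left out, loss of both kinases gave 0.58 for Ccl8 and 0.55 for Ccl11, and with libraries numbered 3 left out KO RAS against WT EV gave -0.0064 for Ccl11. With both kinds of line left out, the difference of RAS effects was -0.55 for Ccl8. Leaving out single libraries, log2 changes crossed 0 for Ccl8 (-0.36 to 0.44) and Ccl11 (-0.51 to 0.70) with loss of both kinases, Ccl8 (-0.50 to 0.15) and Ccl11 (-0.29 to 0.38) in KO RAS against WT EV, Ccl12 (-0.73 to 1.01) in DKO RAS against WT EV, and Ccl2 (-0.81 to 0.14), Ccl7 (-0.44 to 0.47) and Ccl12 (-2.19 to 0.34) in the difference of RAS effects.

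The relation of Ccl2 to Lyz2 (r = 0.578) was 0.503 with the macrophage list, 0.546 in the S6K1 series and 0.0635 in the S6K1/S6K2 series, none of them past the threshold by r. By Spearman's rho, Ccl2 with the macrophage list was at 0.567 (adjusted permutation p 0.0367). That of Ccl7 (0.492) was -0.372 in the S6K1/S6K2 series, that of Ccl8 (0.495) was 0.784 in the S6K1 series and -0.281 in the S6K1/S6K2 series, and that of Ccl11 was 0.275 in the S6K1/S6K2 series. Over the 12 RAS libraries the relation was closer for every member, with r = 0.910 for Ccl2, 0.842 for Ccl7, 0.752 for Ccl8, 0.870 for Ccl11 and 0.974 for Ccl12 (permutation p adjusted over the same family 0.000375, 0.00266, 0.0149, 0.00048 and 0.000138). With few counts, as for Ccl11 and Ccl12 in the S6K1/S6K2 series, depth limits what can be seen, and 3 libraries a group limit the rest.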
